A study of Mus musculus with 12 samples.

Results

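The genes described here encode proteins of the mitochondrial ribosome. They were chosen by symbol alone, as every listed gene whose name is *Mrpl* or *Mrps* followed by a digit, and 78 of the 25124 listed genes met that rule. Of these, 49 carried an *Mrpl* name, given to the large subunit, and 29 an *Mrps* name, given to the small subunit. RNA-seq of brown adipose tissue (BAT) was compared in 4 groups of 10-week-old male mice on a C57B/6J background: wild-type (WT) and *Txnip*-/- mice that had been acclimated for 1 week to room temperature (RT, 23 °C), and WT and *Txnip*-/- mice acclimated for 1 week to thermoneutrality (TN, 30 °C). Each group had 3 libraries. *Txnip* encodes thioredoxin-interacting protein, a regulator of redox state and glucose uptake, and it was lost from the whole body, so a difference in BAT need not arise in the brown adipocyte itself. The labels number the samples of a group but do not state in words that each came from a separate mouse, so the p-values below describe the spread between these samples.

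Mitochondria carry their own ribosome. It translates the few mRNAs of mitochondrial DNA, which encode core subunits of the respiratory chain and of ATP synthase, while all of its proteins are encoded in the nucleus, made in the cytosol and imported. Many of these proteins have a counterpart in the bacterial ribosome, and the others were added during the evolution of mitochondria. Brown adipocytes are packed with mitochondria, and their heat production by uncoupled respiration depends on the respiratory chain; cold stimulates them and thermoneutrality relieves the demand for heat.

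A symbol does not always give the position in the ribosome. Grouped by position, 30 of the 78 genes encode large-subunit proteins with a bacterial counterpart, 21 large-subunit proteins specific to mitochondria, 16 small-subunit proteins with a bacterial counterpart and 10 small-subunit proteins specific to mitochondria. *Mrps30* and *Mrps18a*, in spite of their names, are counted with the large subunit. The remaining gene, *Mrps36*, encodes a subunit of the 2-oxoglutarate dehydrogenase complex and no ribosomal protein in mammals. All 78 genes passed the filter on low levels (a mean TPM of at least 1, where TPM is the abundance of a transcript scaled to its length and to the library) in every comparison.

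The libraries held 29.9 to 47.4 M reads each, and libraries of 1 group correlated with r of 0.993 to 0.996 across genes on the log scale. *Txnip* itself separated the genotypes as labelled, at 564 to 694 TPM in the RT WT libraries against 24.8 to 35.4 TPM in RT *Txnip*-/-, and at 1072 to 1238 TPM in TN WT against 10.5 to 14.4 TPM in TN *Txnip*-/-. All 11 brown adipocyte markers examined, *Ucp1* and *Cidea* among them, were detected in every group. The list also holds *Adipoq*, *Plin1*, *Fabp4* and *Pparg*, which are not specific to brown adipocytes. Sums over the list are therefore no measure of brown adipocytes alone. Markers of other cells differed between groups as well, and their values are given with the comparisons.

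The 5 genes whose mRNA fell in *Txnip*-/- BAT at TN, described below, lie on 5 chromosomes (mm10): *Mrps27* at chr13:99344786-99415561, plus strand, *Mrpl16* at chr19:11770415-11774946, plus strand, *Mrps5* at chr2:127587426-127603986, plus strand, *Mrpl15* at chr1:4773200-4785726, minus strand and *Mrps11* at chr7:78783131-78792988, plus strand. *Mrps11* and *Mrpl46* are neighbours transcribed away from each other, and annotated exons of the pair overlap on opposite strands. The sequences before the start sites of 4 of them are printed to show what lies beside genes called in the same comparison. They are in lower case with any match to a searched motif in capitals. They are restricted to the stretch outside annotated exons (RefSeq promoters, GRCm38.p6, 5′ to 3′).
Mrps27 (chr13:99344706-99344785, plus strand): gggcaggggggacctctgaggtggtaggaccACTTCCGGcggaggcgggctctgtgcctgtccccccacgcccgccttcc
Mrpl16 (chr19:11770165-11770390, plus strand): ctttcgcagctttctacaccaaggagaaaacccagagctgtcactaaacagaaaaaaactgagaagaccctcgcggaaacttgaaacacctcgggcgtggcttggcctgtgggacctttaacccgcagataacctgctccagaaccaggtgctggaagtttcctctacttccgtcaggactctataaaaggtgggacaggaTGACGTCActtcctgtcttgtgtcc
Mrps5 (chr2:127587176-127587221, plus strand): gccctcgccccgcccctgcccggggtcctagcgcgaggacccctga
Mrps11 (chr7:78783090-78783118, plus strand): ccatgaggcaacgcgggccggcgaggggc

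The capitals mark an ETS motif in *Mrps27*, read on the minus strand, and a cyclic AMP response element (CRE) in *Mrpl16*, and the printed stretches of *Mrps5* and *Mrps11* held no match. That of *Mrps5* ends 204 bases before its start site, where annotated exons begin. In the longer window described next, *Mrps11* and *Mrps27* each had 1 YY1 match that lies outside the printed stretch. Over the window from 250 bases before to 50 after the start, 69 of the 78 genes could be matched to a RefSeq promoter (*Mrpl15* had no entry). In that window 5 motifs were searched on both strands, each on its own, so that a base could count towards more than 1 of them. The ETS motif CCGGAAGT, bound by GA-binding protein among others, was present in 11 of the 69 (15.9%) and in 8.73% of the promoters of 9732 genes tested. The motif of nuclear respiratory factor 1 (GCGCA, any base, GCGC) was present in 13 (18.8%) against 11.0%, and that of YY1, AAGATGGCG, in 8 (11.6%) against 3.36%. The CRE, TGACGTCA, was present in 2 (2.90%) against 3.14%, and the E-box CACGTG in 5 (7.25%) against 10.2%. These are counts of letters, and binding was not measured.

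The mitochondrial ribosomal protein mRNAs were moderately abundant and spread widely. Their means over the 12 libraries ran from 9.81 TPM for *Mrpl19* to 286 TPM for *Mrpl30*, with a median of 64.6 TPM, where the 12486 genes with a mean of at least 1 TPM had a median of 11.0 TPM. The scaling to transcript length allows these levels to be compared between genes. Among the large-subunit names, *Mrpl30*, *Mrpl42* (269.7 TPM) and *Mrpl34* (257 TPM) were highest and *Mrpl19*, *Mrpl23* (12.9 TPM) and *Mrpl48* (15.1 TPM) lowest. Among the small-subunit names, *Mrps21* (159 TPM), *Mrps15* (110.0 TPM) and *Mrps24* (109 TPM) were highest and *Mrps33* (13.2 TPM), *Mrps25* (14.3 TPM) and *Mrps11* (24.5 TPM) lowest. The transcripts were short, with a median of 1048 bases against 2644 bases over the genes tested.

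**Figure D1:**
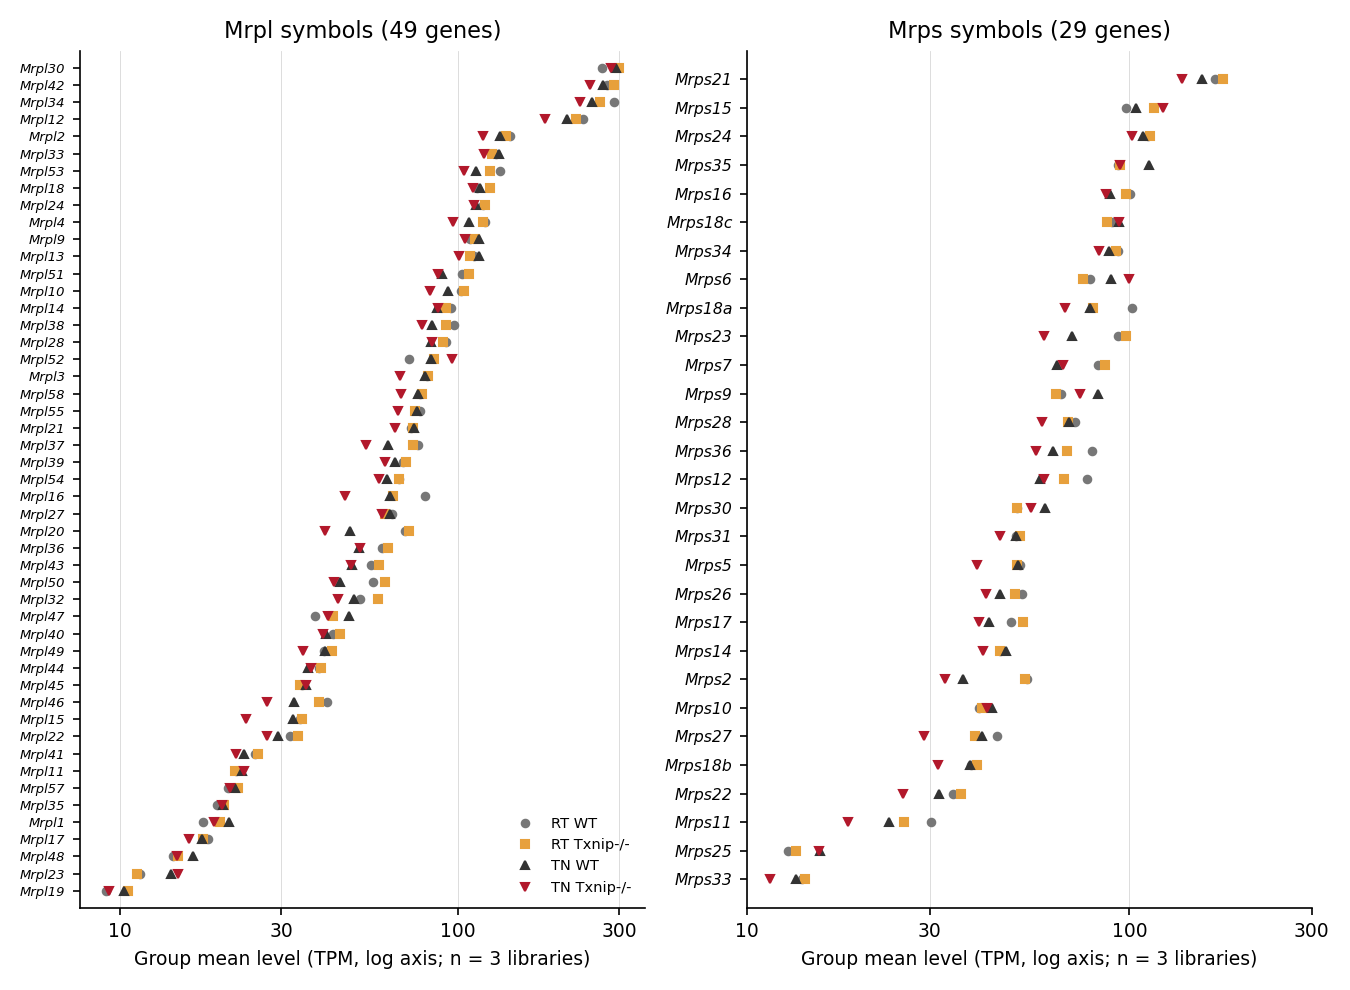
Group mean levels of the 49 *Mrpl* and 29 *Mrps* genes in TPM on a log axis, each gene on its own row, ordered by its mean over 12 libraries; each symbol is the mean of 3 libraries of 1 group. The order of the genes spans 9.81 to 286 TPM, and the red triangles of TN *Txnip*-/- lie leftmost for 53 of the 78 genes.

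Large- and small-subunit mRNAs had close mean levels in every library. The mean of log2(TPM + 1) over the *Mrpl* genes exceeded that over the *Mrps* genes by 0.022 to 0.049 in the RT WT libraries, by 0.069 to 0.095 in RT *Txnip*-/-, by 0.039 to 0.069 in TN WT and by 0.065 to 0.092 in TN *Txnip*-/-. The RT WT libraries lay below both *Txnip*-/- groups without overlap, and the TN WT libraries overlapped the RT WT and TN *Txnip*-/- libraries. Grouped by position rather than by symbol, the large-subunit mean was higher by 0.060 to 0.125 across the 12 libraries, the TN *Txnip*-/- libraries lay above both WT groups, and the other groups overlapped. The summed level of all 78 genes was 5837 to 6079.6 TPM in RT WT, 5715 to 6172 TPM in RT *Txnip*-/-, 5509 to 5968 TPM in TN WT and 5142 to 5438 TPM in TN *Txnip*-/-. The 3 TN *Txnip*-/- libraries had the lowest sums of the 12, below the lowest TN WT library, and the other 3 groups overlapped.

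**Figure D2:**
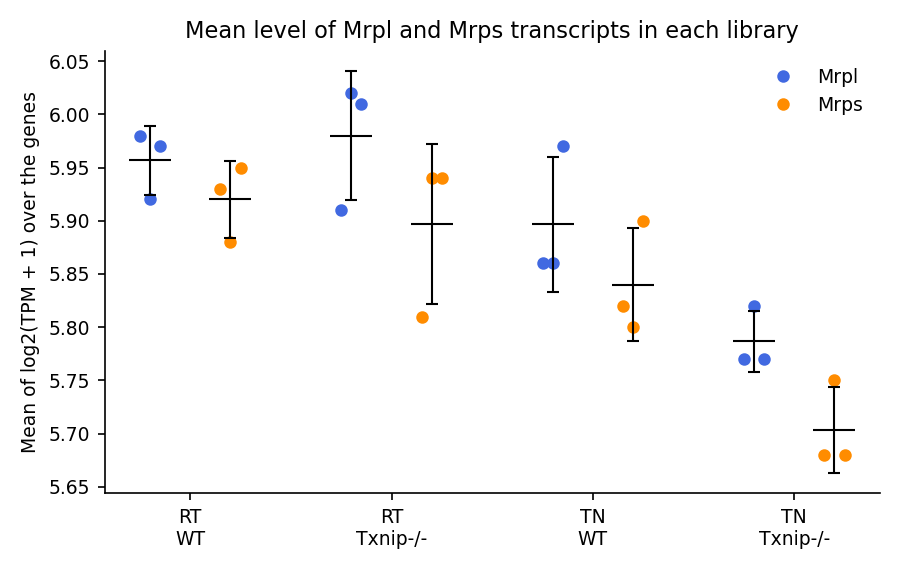
Mean of log2(TPM + 1) over the 49 *Mrpl* (blue) and 29 *Mrps* (orange) genes, 1 point per library, with the group mean and SD (n = 3) in black. In TN *Txnip*-/- the *Mrpl* means were 5.77 to 5.82 and the *Mrps* means 5.68 to 5.75, below the libraries of the other groups.

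Across the 4 groups, the lowest group mean fell in TN *Txnip*-/- for 53 of the 78 genes (67.9%), in RT WT for 13 and in RT *Txnip*-/- and TN WT for 6 each. Over all 12486 genes tested, TN *Txnip*-/- was lowest for 20.1% and RT WT for 43.8%. The highest mean of the 78 genes stood in RT *Txnip*-/- for 33, in RT WT for 25, in TN WT for 15 and in TN *Txnip*-/- for 5, where the shares over all genes tested were 15.6%, 14.4%, 30.3% and 39.7%. By name, TN *Txnip*-/- held the lowest mean for 34 of 49 *Mrpl* genes (69.4%) and 19 of 29 *Mrps* genes (65.5%).

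Whether loss of *Txnip* changed these mRNAs in BAT under the mild cold of RT was addressed first. At RT none of the 78 genes passed the test (limma on log2(TPM + 1), Benjamini-Hochberg adjusted p under 0.05 and a fold change below 0.8 or above its inverse), while 1.49% of the 11980 genes tested at RT did. The log2 difference, *Txnip*-/- minus WT, was negative for 33 (40.8% of all genes) and positive for 45 of the genes, with a median of 0.01 against 0.03 over all genes tested. The median of the 78 genes took the other sign, at -0.007 to -0.016, under 4 other scalings, and ran from -0.02 to 0.05 when a library was left out. Under those scalings 44 to 46 of the genes were negative. On log-scale values normalised by the authors, 52 were negative, with a median of -0.022. On TPM as deposited 10 genes had an unadjusted p under 0.05 with limma, against 16.0% of all genes. The *Txnip*-/- libraries lay below the WT libraries without overlap for 5 genes (7.58% of all genes did so) and above for 9 (15.1%).

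The gene nearest to the threshold at RT was *Mrpl16*, which encodes a large-subunit protein with a bacterial counterpart. Its RT WT libraries had 78.9, 78.3 and 81.9 TPM, and its RT *Txnip*-/- libraries 59.4, 67.0 and 66.5 TPM. The groups did not overlap, and the log2 difference was -0.31 ± 0.06 (SE) with a limma adjusted p of 0.0726. *Mrps18a*, of the large subunit in spite of its name, had 98.3, 108 and 97.4 TPM in RT WT and 72.9, 82.9 and 85.2 TPM in RT *Txnip*-/-, again without overlap (log2 difference -0.33 ± 0.08, limma adjusted p = 0.0929). The further negative values, taken from the ends of each subunit name and not of the 78 genes together, were *Mrps11* (-0.23), *Mrps36* (-0.21), *Mrps12* (-0.20), *Mrpl34* (-0.14), *Mrpl53* (-0.09) and *Mrpl46* (-0.08). On the positive side, again by subunit name, stood *Mrps15* (0.25), a small-subunit protein with a bacterial counterpart, and *Mrpl52* (0.25), a large-subunit protein specific to mitochondria, with *Mrpl19* (0.20), *Mrpl32* (0.18), *Mrpl47* (0.17), *Mrps17* (0.10), *Mrps22* and *Mrps21* (0.07 each), all log2 differences that did not pass. Skeletal muscle markers were higher in the RT *Txnip*-/- libraries, summing to 17.9 to 43.5 TPM over 6 genes against 2.32 to 2.84 TPM in RT WT (5 of 5 tested called higher). At RT 2 of 11 brown adipocyte markers were called lower and 2 of 6 tested macrophage and 1 of 3 tested lymphocyte markers higher, and 0 of 5 fibroblast, 0 of 4 endothelial and 0 of 3 white adipocyte markers were called. The part of these markers in the values at RT was not tested.

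At TN, 5 of the 78 genes fell in *Txnip*-/- BAT and none rose. Of these, 2 are named for the large subunit, *Mrpl16* and *Mrpl15*, and the others for the small subunit, *Mrps27*, *Mrps5* and *Mrps11*. Of all 12891 genes tested at TN, 2.17% were called lower and 6.49% higher. The log2 difference was negative for 66 of the 78 genes, where 48.1% of all genes were negative, and its median was -0.13 over the 78 genes, -0.12 over the *Mrpl* and -0.14 over the *Mrps* genes, against 0.01 over all genes. The *Txnip*-/- libraries lay below the WT libraries without overlap for 33 of the 78 genes, 20 *Mrpl* and 13 *Mrps*, against 13.4% of all genes, and above them for 1, *Mrps15*, against 17.7%. At an unadjusted p under 0.05 stood 25 of the 78 genes, against 25.6% of all genes in either direction. With a library left out, the log2 difference was negative for 55 (without TN WT replicate 3) to 75 (without TN *Txnip*-/- replicate 2) of the 78 genes. Its median then ran from -0.094 (without TN WT replicate 3) to -0.146 (without TN WT replicate 2).

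*Mrps27* encodes a pentatricopeptide repeat protein of the small subunit that has no bacterial counterpart. Its level was 41.1, 41.1 and 41.0 TPM in the TN WT libraries and 27.9, 29.3 and 29.9 TPM in TN *Txnip*-/-. Every *Txnip*-/- library was lower than every WT library, at means of 29.0 ± 1.01 against 41.1 ± 0.0641 TPM (SD, n = 3), and the log2 difference was -0.49 ± 0.06 (SE) with a limma adjusted p of 0.00587. At RT the same gene stood at 46.6, 41.6 and 47.1 TPM in WT and 34.3, 39.9 and 43.9 TPM in *Txnip*-/-. Those groups overlapped, with a log2 difference of -0.20 ± 0.10. Annotated exons of 6430562O15Rik overlap *Mrps27* on the opposite strand, and reads of the pair cannot be told apart without strand.

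Of the 78 genes, *Mrpl16* alone had *Txnip*-/- libraries below the WT libraries without overlap at both temperatures. At TN it had 67.9, 58.2 and 62.7 TPM in WT and 47.4, 45.8 and 45.4 TPM in *Txnip*-/-, a log2 difference of -0.44 ± 0.07 (limma adjusted p = 0.0123). Over the 11893 genes tested at both temperatures, 3.20% lay below at both. *Mrpl15*, another large-subunit protein with a bacterial counterpart, had 35.7, 29.1 and 32.5 TPM in TN WT and 24.7, 22.8 and 23.5 TPM in TN *Txnip*-/- (log2 difference -0.43 ± 0.08, limma adjusted p = 0.0204). At RT its groups overlapped, at 34.2 ± 1.28 TPM in WT and 34.5 ± 3.20 TPM in *Txnip*-/-. Its call at TN was lost without TN WT replicate 3 (adjusted p = 0.062), *Txnip*-/- replicate 1 (0.0589) or *Txnip*-/- replicate 2 (0.0701).

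*Mrps5* encodes a small-subunit protein near the path by which mRNA enters the ribosome. It had 49.8, 52.2 and 51.3 TPM in TN WT and 41.0, 40.1 and 38.9 TPM in TN *Txnip*-/- (log2 difference -0.35 ± 0.06, limma adjusted p = 0.0133). The RT means were 51.8 ± 2.12 (WT) and 50.7 ± 2.18 TPM (*Txnip*-/-, SD, n = 3 each), so that the TN *Txnip*-/- group alone stood apart from the other 3. *Mrps11*, a small-subunit protein of the platform, had 24.0, 21.9 and 24.4 TPM in TN WT and 16.9, 19.7 and 18.5 TPM in TN *Txnip*-/- (log2 difference -0.34 ± 0.08, limma adjusted p = 0.0377). Its groups did not overlap, but its call was lost when any 1 of the 6 TN libraries was left out, with adjusted p-values from 0.0526 to 0.13, and with no filter on low levels (0.0694). The divergent neighbour of *Mrps11*, *Mrpl46*, had 32.2, 30.3 and 35.6 TPM in TN WT and 27.1, 28.0 and 26.5 TPM in TN *Txnip*-/-, also without overlap, and did not pass (log2 difference -0.26 ± 0.08, limma adjusted p = 0.0744). The strand setting of the counting is not given in the sources used here, so reads in the shared exons of this pair cannot be told apart. On the log-scale values that the authors normalised for each temperature, *Mrps27* alone kept its call. There *Mrpl16* (-0.32), *Mrps5* (-0.26) and *Mrpl15* (-0.29) had limma adjusted p-values of 0.0111 to 0.0161 but missed the fold limit, and *Mrps11* (-0.22) missed both.

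**Figure D3:**
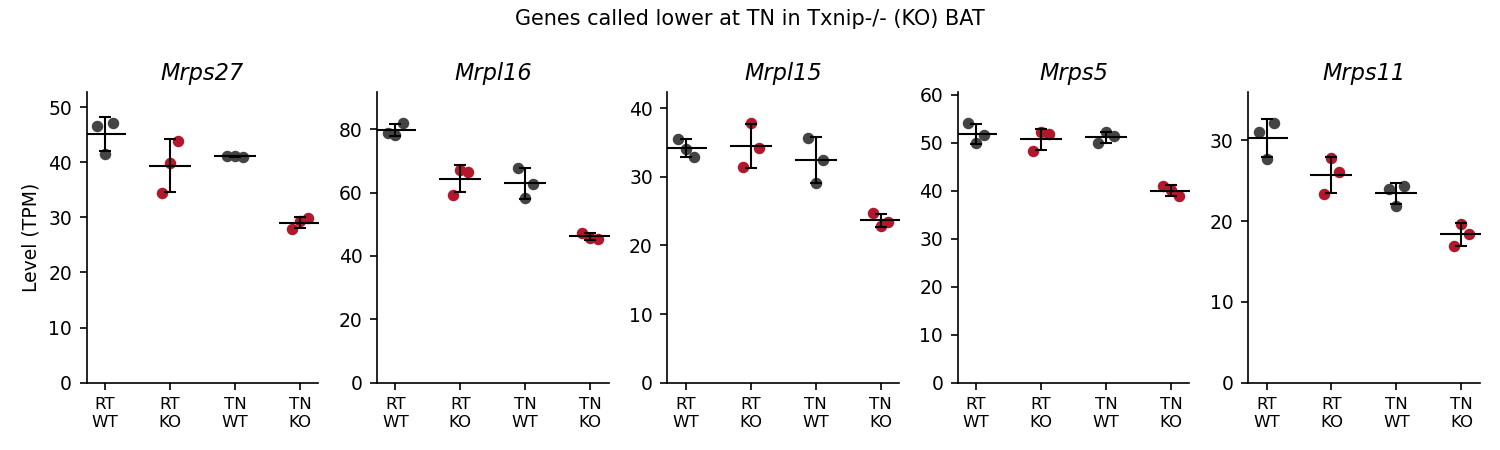
Levels in TPM of the 5 genes called lower at TN in *Txnip*-/- (KO) BAT, 1 point per library, with group means and SD (n = 3). In each panel the 3 TN *Txnip*-/- libraries lie below the 3 TN WT libraries, for *Mrps27* at 27.9 to 29.9 against 41.0 to 41.1 TPM.

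Among genes that did not pass at TN, *Mrps35* had an adjusted p of 0.0496 (limma) with a log2 difference of -0.24, short of the fold limit. It had 108, 110.2 and 119 TPM in TN WT and 94.4, 95.0 and 94.5 TPM in TN *Txnip*-/-. *Mrps22*, a small-subunit protein specific to mitochondria, had a log2 difference of -0.31 ± 0.09 (adjusted p = 0.0783), and *Mrpl3*, of the large subunit, -0.25 ± 0.07 (adjusted p = 0.0682). On the other side *Mrps15* had 98.7, 107 and 107 TPM in TN WT and 127, 124 and 116 TPM in TN *Txnip*-/-, higher without overlap at this temperature as at RT (log2 difference 0.23 ± 0.07, adjusted p = 0.0734). The next log2 differences were 0.21 for *Mrpl52*, 0.15 for *Mrps6* and 0.05 for *Mrps7*, none of which passed, and *Mrpl44* stood at 0.02. The values of *Mrps6* may hold reads of *Slc5a3*, whose annotated exons overlap it on the same strand.

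By position, the log2 difference at TN was negative for 25 of 30 large-subunit proteins with a bacterial counterpart (2 called, median -0.14), 18 of 21 specific to mitochondria (0 called, median -0.09), 12 of 16 small-subunit proteins with a bacterial counterpart (2 called, median -0.08) and 10 of 10 specific to mitochondria (1 called, median -0.22). The last class ranged from -0.49 for *Mrps27* to -0.01 for *Mrps25*. Over all genes tested at TN 48.1% were negative and 2.17% called lower. The classes are small and no difference between them was tested. In the class with no call, 3 of 21 genes had an unadjusted p under 0.05 with limma, against 25.6% of all genes.

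Genes picked for their role differed among themselves. The stalk, which recruits translation factors to the large subunit, includes *Mrpl10* and *Mrpl12*, with log2 differences at TN of -0.18 ± 0.06 and -0.22 ± 0.07. Neither passed, though their groups did not overlap, at 82.4 ± 0.873 against 93.4 ± 0.984 TPM and 181 ± 8.44 against 209.8 ± 10.8 TPM. *Mrpl11*, at the base of the stalk, had 0.02, and *Mrpl45*, which holds the ribosome at the inner membrane, 0.00, with levels of 35.6 ± 0.881 against 35.6 ± 2.10 TPM. *Mrpl58*, a peptidyl-tRNA hydrolase that releases stalled peptides, had -0.17, *Mrps30* -0.12 and *Mrps36* -0.14. The 3 *Mrps18* paralogues had log2 differences of -0.22 for *Mrps18a*, -0.27 for *Mrps18b* and -0.01 for *Mrps18c*, and *Mrps18b* alone of these was below WT without overlap. None of them passed.

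**Figure D4:**
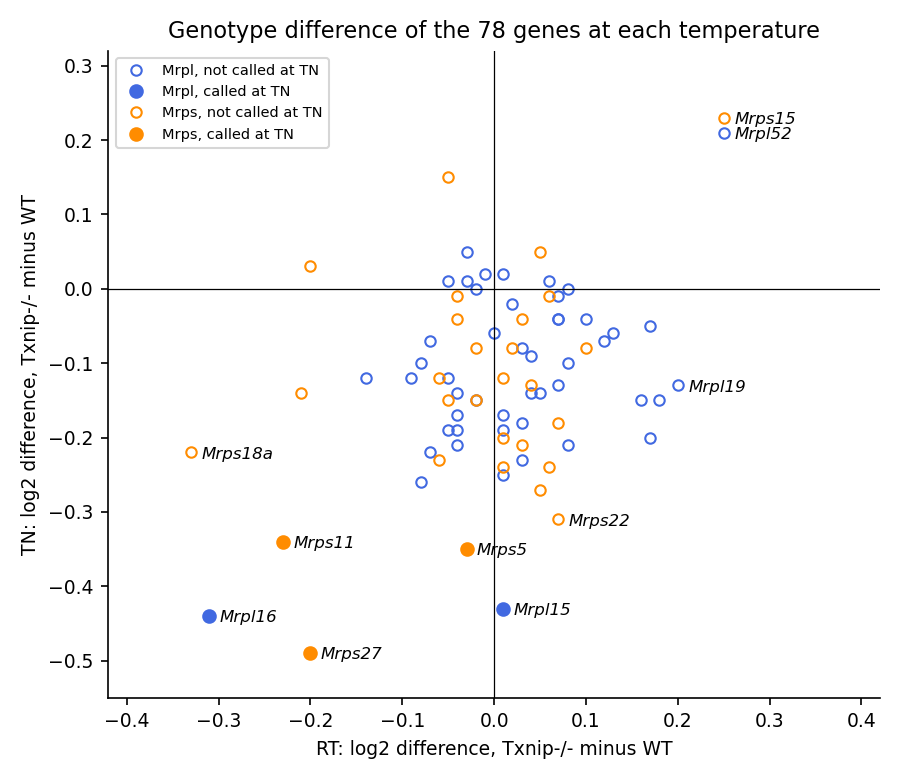
Log2 difference, *Txnip*-/- minus WT, at RT (horizontal axis) and TN (vertical axis) for the 78 genes, from separate sets of 6 libraries; filled points passed the test at TN. Most points lie below the horizontal zero line (66 of 78), while 33 of 78 lie left of the vertical one.

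Markers of cell types moved with the same contrast. Summed over 11 brown adipocyte markers, the level was 21317 to 23103 TPM in TN WT and 18246 to 19982 TPM in TN *Txnip*-/-, and 5 of the 11 were called lower. Macrophage markers summed to 112 to 201 TPM in TN WT and 326 to 449 TPM in TN *Txnip*-/- (7 of 7 called higher), and fibroblast markers to 319.8 to 443 TPM and 769 to 786 TPM (5 of 5 called higher). Lymphocyte markers summed to 6.89 to 13.2 TPM and 24.3 to 30.5 TPM (2 of 6 tested called higher), and 0 of 4 endothelial markers were called. White adipocyte markers summed to 91.6 to 114 TPM and 111 to 176 TPM (2 of 3 tested called higher). None of these markers was at 0 in any group, and their part in the values of the ribosomal protein genes was not tested. In bulk tissue, fewer brown adipocytes and less RNA per brown adipocyte cannot be told apart.

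Other genes of mitochondrial translation were read from lists of known factors, whose calls at TN stand against the 2.17% of all genes called lower. Ribosomal proteins of mitochondria with other symbols were negative at TN in 4 of 5 (0 called with limma, 1 at an unadjusted p under 0.05, median -0.16), with *Ptcd3* at -0.29, *Dap3* at -0.17, *Chchd1* and *Gadd45gip1* at -0.16 each and *Aurkaip1* at 0.00. Translation factors were negative in 13 of 15 (1 called lower, median -0.19), aminoacyl-tRNA synthetases in 15 of 17 (1 called lower, median -0.16), and factors of ribosome assembly and rRNA modification in 22 of 27 (2 called lower, median -0.14). *Lrpprc*, which stabilises mitochondrial mRNAs, fell from 77.7 ± 6.17 to 57.7 ± 1.03 TPM (log2 difference -0.42, limma adjusted p = 0.0133). *Yars2*, the tyrosyl-tRNA synthetase of mitochondria, fell from 23.2 ± 1.55 to 17.0 ± 0.195 TPM (-0.42, adjusted p = 0.0124). The called assembly genes were *Mpv17l2* (-0.38) and *Mrm1*, an rRNA methyltransferase (-0.42). Genes of mitochondrial DNA transcription and replication were negative in 9 of 10, with 0 called and 0 at an unadjusted p under 0.05 (median -0.09), and regulators of mitochondrial biogenesis in 6 of 10 (1 called lower, median -0.06). The called regulator was *Esrra*, an orphan nuclear receptor that drives mitochondrial genes, at 97.7 ± 3.71 against 130.1 ± 11.9 TPM (log2 difference -0.41, adjusted p = 0.022). *Ppargc1a*, the coactivator of mitochondrial biogenesis, had the most negative difference of that list and did not pass, at 7.04 ± 1.74 against 12.2 ± 2.67 TPM (-0.72 ± 0.19, adjusted p = 0.0514). The calls of *Lrpprc*, *Yars2*, *Mpv17l2*, *Mrm1* and *Esrra* were lost without TN *Txnip*-/- replicate 1, at adjusted p-values of 0.0541 to 0.108, and those of *Lrpprc*, *Mrm1* and *Esrra* without TN *Txnip*-/- replicate 2 as well. Those of *Mrm1* and *Esrra* were also lost without TN WT replicate 1 or 3, and that of *Mrm1* without TN *Txnip*-/- replicate 3 or with no filter. On the authors' log-scale values *Lrpprc* alone of these kept its call. At RT none of the genes on these lists was called, against 1.49% of all genes. There 0 to 3 genes of each list had an unadjusted p under 0.05 with limma, against 16.0% of all genes.

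The effect of temperature was examined within each genotype, in 1 fit over the 12 libraries. These comparisons share libraries with those of genotype, so their values are given side by side and not as separate evidence. In WT BAT, 9 of the 78 genes were lower and 1 higher at TN than at RT, where 6.39% of 12486 genes were called lower and 31.4% higher. The median log2 difference, TN minus RT, was -0.06 over the 78 genes and 0.18 over all genes, with 51 of the 78 genes negative against 28.8% of all genes. In *Txnip*-/- BAT, 18 genes were lower and 2 higher, against 8.27% and 30.9% of all genes. There 66 of the 78 genes were negative, against 33.7% of all genes, and the median was -0.20 against 0.15. The lower calls in WT numbered 6 without RT WT replicate 3 and 5 without TN WT replicate 2, and the WT median of the 78 genes was -0.03 without TN WT replicate 1.

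These counts depended on the scaling, and the median of all genes stood at 0.18 in WT and 0.15 in *Txnip*-/- on TPM as deposited. With every library centred on the median of its genes, 24 of the 78 genes were called lower and 0 higher in WT, and 51 lower and 0 higher in *Txnip*-/-. On that scale 14.7% of all genes were called lower and 15.4% higher in WT, and 19.5% and 18.4% in *Txnip*-/-, so the split over all genes went from 798 lower and 3919 higher to 1841 and 1926 in WT and from 1033 and 3858 to 2435 and 2294 in *Txnip*-/-. The medians of the 78 genes became -0.25 and -0.39. Centring moves every gene of a comparison by the same amount, and the 3 genes called higher were no longer called.

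**Figure D5:**
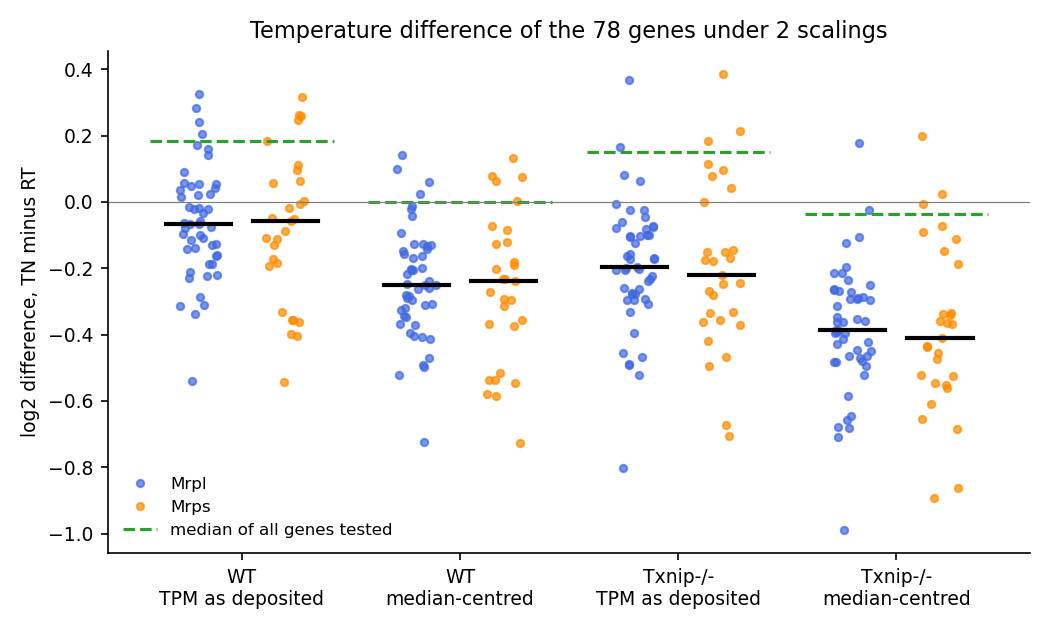
Log2 difference, TN minus RT, of the *Mrpl* (blue) and *Mrps* (orange) genes in WT and *Txnip*-/- BAT, with TPM as deposited and with libraries centred on their median gene; black bars are medians of each class and dashed lines the median of all genes tested. The medians of the 78 genes lie below the dashed line under both scalings, at -0.06 and -0.20 with TPM as deposited and at -0.25 and -0.39 after centring.

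*Mrpl20* and *Mrps2*, a large- and a small-subunit protein with bacterial counterparts, had the most negative temperature differences in WT. *Mrpl20* had 68.1, 66.2 and 74.2 TPM in RT WT and 41.3, 46.0 and 56.2 TPM in TN WT, and 59.6, 79.1 and 75.6 TPM in RT *Txnip*-/- and 37.0, 43.1 and 41.0 TPM in TN *Txnip*-/-. The RT and TN libraries did not overlap in either genotype, with log2 differences of -0.54 ± 0.12 (limma adjusted p = 0.00385) in WT and -0.80 ± 0.12 (adjusted p = 0.000286) in *Txnip*-/-. *Mrps2* fell by 0.54 in WT and by 0.67 in *Txnip*-/- on the log2 scale, from 54.0 ± 3.55 to 36.7 ± 2.41 TPM and from 53.4 ± 7.40 to 32.9 ± 0.157 TPM. *Mrps23*, specific to mitochondria, fell by 0.40 in WT and by 0.70 in *Txnip*-/-, from 93.6 ± 5.85 to 70.9 ± 4.52 TPM and from 98.2 ± 11.6 to 59.6 ± 3.08 TPM.

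Of the 9 genes called lower in WT, 6 were among the 18 called lower in *Txnip*-/- (66.7% of the first list and 33.3% of the second): *Mrpl16*, *Mrpl20*, *Mrps2*, *Mrps7*, *Mrps11* and *Mrps23*. The other WT calls were *Mrps12* (-0.40), a protein of the decoding centre, *Mrps18a* (-0.36) and *Mrps36* (-0.33). In *Txnip*-/- these had log2 differences of -0.18, -0.25 and -0.27. *Mrpl37* (-0.46), *Mrpl15* (-0.52), *Mrps5* (-0.33), *Mrpl46* (-0.49), *Mrpl10* (-0.33), *Mrpl50* (-0.49), *Mrpl32* (-0.39), *Mrps27* (-0.42), *Mrps22* (-0.49), *Mrps17* (-0.37), *Mrps21* (-0.36) and *Mrps18b* (-0.33) were the 12 calls in *Txnip*-/- that were not made in WT, where their log2 differences ran from -0.32 for *Mrpl46* to -0.01 for *Mrps18b*. The WT calls of *Mrpl16*, *Mrps11* and *Mrps36* were lost without RT WT replicate 3 or TN WT replicate 2, and that of *Mrps18a* without RT WT replicate 2 or TN WT replicate 2. In *Txnip*-/- those of *Mrps5*, *Mrps7*, *Mrpl10*, *Mrps17*, *Mrps18b* and *Mrps21* were lost without 1 or another *Txnip*-/- library, and the genes called lower in both genotypes numbered 4 to 8 when a library was left out (4 without RT WT replicate 3 or TN WT replicate 2). After median centring 23 of the 24 genes called lower in WT were among the 51 called in *Txnip*-/- (95.8% and 45.1%), and with upper-quartile scaling 13 of 15 were among 31 (86.7% and 41.9%). The genes called lower in both genotypes were not counted over all genes. Whether the overlap is particular to the 78 genes is therefore not known. *Mrpl37*, *Mrpl46*, *Mrpl50* and *Mrps17* of the 12 were called in WT too after centring. That the others differ between the genotypes is not shown by the calls, and the test of the difference is given below. In WT the TN libraries lay below the RT libraries without overlap for 29 of the 78 genes (1493 of all 12486 genes) and above for 12 (45.5%), and in *Txnip*-/- below for 47 (16.9%) and above for 4 (44.1%). TN lay below RT for 24 of the 78 genes in both genotypes (8.76% of all genes) and above RT in both for 2, *Mrpl23* and *Mrps9* (34.9%).

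On TPM as deposited, the difference, TN minus RT, was positive for 27 of the 78 genes in WT and 12 in *Txnip*-/-, and 1 and 2 of them were called higher. With no limit on the fold 7 in WT and 3 in *Txnip*-/- passed, against 40.4% and 37.9% of all genes, in WT *Mrpl1* (0.24), *Mrps25* (0.26), *Mrps30* (0.25), *Mrps35* (0.26), *Mrpl23* (0.28), *Mrps9* and *Mrpl47*, and in *Txnip*-/- *Mrps9* (0.21), *Mrpl23* and *Mrps6*. *Mrpl47*, of the large subunit, had 41.6, 37.3 and 34.5 TPM in RT WT and 47.8, 43.2 and 51.6 TPM in TN WT (log2 difference 0.32 ± 0.08, limma adjusted p = 0.00669), and 42.6 ± 1.24 TPM in RT *Txnip*-/- and 41.3 ± 2.23 TPM in TN *Txnip*-/-. *Mrps9* had 68.7, 66.7 and 63.4 TPM in RT WT and 83.5, 78.6 and 86.0 TPM in TN WT, a log2 difference of 0.32 ± 0.05 whose fold of 1.24 was short of the limit (adjusted p = 0.000826). *Mrpl23*, at the exit of the peptide tunnel, rose by 0.37 and *Mrps6* by 0.39 on the log2 scale in *Txnip*-/-. The call of *Mrpl47* was also lost without RT WT replicate 2 or 3 or TN WT replicate 1 or 3, that of *Mrpl23* without RT *Txnip*-/- replicate 3 or TN *Txnip*-/- replicate 2, and that of *Mrps6* without TN *Txnip*-/- replicate 2. All 3 calls were lost under every other scaling, and *Mrpl47* and *Mrpl23* had log2 differences of 0.14 (WT) and 0.18 (*Txnip*-/-) after median centring. The positive differences became fewer as well. After median centring 69 of the 78 genes were negative in WT and 75 in *Txnip*-/-, and with upper-quartile scaling 65 and 70.

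Cell type markers moved with temperature too. Brown adipocyte markers summed to 29723 to 30589 TPM in RT WT and 21317 to 23103 TPM in TN WT, and to 25912 to 30909 TPM in RT *Txnip*-/- against 18246 to 19982 TPM in TN *Txnip*-/-. Of the 11, 6 were called lower and 1 higher in WT, and 8 lower in *Txnip*-/-. Macrophage markers summed to 49.1 to 53.8 TPM in RT WT and 112 to 201 TPM in TN WT, and to 83.0 to 147 TPM in RT *Txnip*-/- against 326 to 449 TPM in TN *Txnip*-/-, with 6 of 7 called higher in WT and 7 of 7 in *Txnip*-/-. Fibroblast markers summed to 193 to 241 TPM in RT WT, 319.8 to 443 TPM in TN WT, 237 to 291 TPM in RT *Txnip*-/- and 769 to 786 TPM in TN *Txnip*-/- (5 of 5 called higher at TN in both genotypes). Of those tested, 4 of 5 lymphocyte, 3 of 4 endothelial and 2 of 3 white adipocyte markers were called higher at TN in WT, and 5 of 5, 4 of 4 and 2 of 3 in *Txnip*-/-. Skeletal muscle markers were called lower at TN in *Txnip*-/- (5 of 5 tested, 17.9 to 43.5 TPM at RT against 2.82 to 14.4 TPM at TN), and 0 of 5 were called in WT. Over all genes on TPM as deposited, 31.4% in WT and 30.9% in *Txnip*-/- were called higher at TN, and 6.39% and 8.27% lower. The marker calls were read on that scale alone. The part of these cells in the temperature differences was not tested.

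On the lists of other genes, the temperature comparison in *Txnip*-/- called *Ptcd3* (-0.35), the translation elongation factor *Gfm1* (-0.34), 5 of 17 aminoacyl-tRNA synthetases and 6 of 27 assembly and modification factors lower, where 8.27% of all genes were called lower. The synthetases were *Mars2* (-0.51), *Yars2* (-0.40), *Cars2* and *Fars2* (-0.38 each) and *Hars2* (-0.37). The assembly and modification factors were the rRNA methyltransferases *Mrm1* (-0.34), *Mrm2* (-0.40), *Mrm3* (-0.42) and *Nsun4* (-0.35), with *Trub2* (-0.33) and *Fastkd2* (-0.32). *Polrmt*, the RNA polymerase of mitochondria (-0.54), *Tfb2m*, its initiation factor (-0.53), and *Twnk*, the replicative helicase (-0.43), were called lower as well, the last of which overlaps *Mrpl43* on the opposite strand. *Ppargc1a* fell by 1.95 on the log2 scale in *Txnip*-/-, from 32.4 ± 14.9 to 7.04 ± 1.74 TPM, and *Esrra* was called lower as well (-0.35), while *Nrf1* (0.41), *Gabpb1* (0.49) and *Myc* (1.37) were called higher. The WT difference of *Ppargc1a* was -0.86 and was not called, and its interaction of -1.09 did not pass. In WT, *Fars2* (-0.43) and *Mars2* (-0.42) were called lower (6.39% of all genes were), and *Ngrn* (0.33), *Polg2* (0.47), *Nrf1* (0.34), *Gabpa* (0.57), *Gabpb1* (0.37) and *Myc* (1.61) higher. These higher calls stand against 30.9% of all genes in *Txnip*-/- and 31.4% in WT. After median centring *Myc* kept its higher call in both genotypes and *Gabpa* in WT (0.39), while *Nrf1* (0.22) and *Gabpb1* (0.30) in *Txnip*-/- and *Nrf1* (0.16), *Gabpb1* (0.19), *Ngrn* (0.14) and *Polg2* (0.29) in WT were no longer called. When 1 library of the genotype was left out, the calls of *Cars2*, *Hars2*, *Ptcd3*, *Gfm1*, *Mrm1*, *Nsun4*, *Trub2*, *Fastkd2*, *Esrra* and *Nrf1* in *Txnip*-/- and of *Mars2*, *Ngrn*, *Gabpb1* and *Nrf1* in WT were each lost at least once.

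The difference between the genotype effects at the 2 temperatures was tested as an interaction. None of the 78 genes passed with limma, and 1 of 12486 genes did (0.00801%), *Txnip* itself. The interaction was negative for 66 of the 78 genes, 42 of 49 *Mrpl* and 24 of 29 *Mrps*, where 54.0% of all genes were negative, and its median was -0.13 against -0.02. At an unadjusted p under 0.05 stood 19 of the 78 genes, against 12.6% of all genes. The lowest adjusted p was 0.162 for *Mrps5* (-0.32 ± 0.08), and the most negative values were -0.44 ± 0.12 for *Mrpl15*, -0.39 ± 0.16 for *Mrps22* and -0.37 ± 0.11 for *Mrpl47*. The most positive were 0.22 for *Mrps12*, 0.20 for *Mrps6* and 0.12 for *Mrps18a*. A smaller genotype effect at RT than at TN was not shown for any single gene of the set, at 3 libraries per group.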

How the data were processed

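RNA of interscapular BAT was sequenced after poly-A selection (NEBNext Ultra II, single-end reads) in 12 libraries, 3 per group. The authors aligned the reads to mm10 with STAR 2.7.5a and counted exon reads with HOMER 4.11.1, keeping 1 transcript per gene, and deposited TPM values, scaled by them for transcript length and library size. The handling of strand is not given in the sources used here. The authors also deposited log2-like values per temperature, normalised with HOMER and DESeq2, whose transform is not named in the headers. These served as an alternative for the genotype comparisons. The fold changes and p-values in the same tables were not used.

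Genes with a mean of at least 1 TPM over the libraries compared were fitted as log2(TPM + 1) with limma 3.58.1 (R 4.3.3; tables by Python 3.11.15). The genotype comparisons used the 6 libraries of 1 temperature. The temperature comparisons and the interaction used all 12. A call needed a Benjamini-Hochberg adjusted p under 0.05 over all genes tested and a fold change above 1.25 or below 0.8, and for the interaction the adjusted p alone. Fold changes on this scale understate changes of low genes. The listed genes summed to 55.4 to 57.6% of the full TPM scale, TPM keep no counts, and so no counting interval was set. The fits were also run on simulated data, and the outcome is not given here.

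The genes, lists and rules were chosen with earlier results of these data known. Named genes were all calls (the 12 of lowest adjusted p where there were more), the 4 most negative and positive *Mrpl* and *Mrps* genes per genotype comparison, the 3 of each sign in the other comparisons, the 3 highest and lowest levels, and genes fixed by role. In *Txnip*-/- at TN against RT, the calls past the 12, and in WT the genes that passed with no fold limit, were named after their values were seen. Alternatives changed the pseudocount to 0.1, the filter, the scaling (upper quartile, median centring, trends on length or GC content), the fold limit, the libraries fitted together and the replicate block, or left out each library. Protein sequences were not used here.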

Additional observations from a re-analysis of the deposited data

Results flagged for a closer look

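For 3 genes, every library of a group lay on 1 side of the other group in 1 setting and on the opposite side in the other. *Mrpl19* was higher in *Txnip*-/- than in WT at RT and lower at TN, without overlap in either, and the difference of the log2 differences was -0.33. *Mrpl22* had the same order, with -0.18. *Mrpl9* was higher at TN than at RT in WT and lower at TN in *Txnip*-/-, with -0.19. Some of the gaps were narrow. At RT the highest WT library of *Mrpl22* had 31.933 TPM and the lowest *Txnip*-/- library 31.936 TPM. At TN the highest *Txnip*-/- library of *Mrpl19* had 9.886 TPM and the lowest WT library 9.979 TPM. The opposite directions of *Mrpl9* held on TPM as deposited (0.09 and -0.10) but not after median centring, where both differences were negative (-0.09 in WT and -0.29 in *Txnip*-/-). As an interaction none passed with limma, at adjusted p-values of 0.278 for *Mrpl19*, 0.391 for *Mrpl22* and 0.324 for *Mrpl9*. The first order was found in 0.765% of the 11893 genes tested at both temperatures and the second in 0.400% of 12486 genes.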

How the results depend on the processing

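No call was made at RT or for the interaction under any alternative. At TN, the 5 calls in *Txnip*-/- against WT became 1 on the authors' log-scale values, 4 with no filter (*Mrps11* lost), 6 with no fold limit (*Mrps35* gained) and 3 to 4 when a library was left out (3 without WT replicate 3, *Txnip*-/- replicate 1 or *Txnip*-/- replicate 2). The share of all genes called lower went from 2.17% to 2.68% with no fold limit. For the other settings named here that share was not counted. TN against RT moved with the scaling, which shifted the median of all genes from 0.18 to 0.001 in WT and from 0.15 to -0.037 in *Txnip*-/- after median centring. In WT, the 10 calls (9 lower) became 15 with the upper quartile, 24 with median centring, 17 without the length trend and 21 without the GC trend, all lower, where the share of all genes called lower went from 6.39% to 9.65%, 14.7%, 14.2% and 14.2%. With no fold limit they became 25, of which 18 were lower (9.87% of all genes) and 7 higher (40.4%), and when a library was left out 6 to 12. The WT median of -0.06 became -0.165 (upper quartile), -0.247 (centring), -0.19 (length) and -0.241 (GC), and ran from -0.092 to -0.028 when a library was left out. In *Txnip*-/-, the 20 calls (18 lower) became 31 (upper quartile), 51 (centring), 38 (length) and 45 (GC), all lower, where the share of all genes called lower went from 8.27% to 11.7%, 19.5%, 17.0% and 17.2%. With no fold limit they became 41, of which 38 were lower (13.5% of all genes) and 3 higher (37.9%). When a library was left out they ran from 15 (14 lower, without RT *Txnip*-/- replicate 3) to 28 (26 lower, without RT *Txnip*-/- replicate 1). The median of -0.20 became -0.277, -0.386, -0.311 and -0.369 under the 4 scalings, and ran from -0.233 to -0.173 when a library was left out. The cause of these changes was not tested. The labels do not state whether the same replicate number in WT and *Txnip*-/- marks a pair. The paper describes the WT mice as littermates. The deviations of libraries with the same number correlated at 0.30, -0.013 and 0.216 at RT and 0.039, 0.023 and -0.029 at TN. Not every library correlated best with its own number. With so few libraries per group these correlations cannot exclude a pairing. With the replicate block the calls at TN were 4, *Mrps11* being lost (adjusted p = 0.0751, limma), and the temperature calls stayed at 10 and 20.

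Named differences near 0 took the other sign. In *Txnip*-/- against WT at TN, *Mrpl11* had -0.02 with centring, -0.0035 without the length trend and -0.001 on the authors' log-scale values, *Mrpl23* -0.01 without the GC trend, *Mrpl44* -0.01 with centring and -0.0047 without the GC trend, and *Mrps12* -0.01 and -0.03 under the same pair. With a library left out at TN, *Mrpl11* ranged from -0.01 to 0.04, *Mrpl23* from -0.07 to 0.16, *Mrpl44* from -0.01 to 0.06, *Mrpl45* from -0.04 to 0.04, *Mrps12* from -0.07 to 0.11, *Mrps18c* from -0.06 to 0.06 and *Mrps7* from -0.0032 to 0.13, and at RT *Mrpl46* from -0.15 to 0.0008 and *Mrps22* from -0.01 to 0.17. Over named genes and settings with all libraries, 574 values kept direction and side of the threshold, 18 lost the call and 8 took the other sign. With a library left out the counts were 595, 28 and 16, and 3 gained a call.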
